A study of Homo sapiens with 4 samples.

Results

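The Notch pathway was followed at 10 genes by poly(A) RNA sequencing in NCI-H1048. This established human cell line comes from a small cell lung cancer of the tuft-like type, which expresses POU2F3, the transcription factor of tuft cells (rare chemosensory cells of epithelia). The genes were chosen by their symbols: the receptors NOTCH1, NOTCH2 and NOTCH3, the ligands JAG1, JAG2 and DLL1, the target genes HES1, HEY1 and HEYL, and the neuronal repressor REST. These are 10 of 35979 symbols in the deposited tables, and 9 of them passed an expression minimum that 14940 symbols passed. The 4 libraries came from cells that received a guide RNA (gRNA): COLCA2 gRNA 1 and COLCA2 gRNA 2, both labelled COLCA2 knockout, POU2F3 gRNA, labelled POU2F3 knockout, and non-targeting gRNA, labelled WT. They are called COLCA2 guide 1, COLCA2 guide 2, the POU2F3 guide and the control below. All cells were of the same line with no treatment besides the gRNA given in the labels, and whether a library came from a clone or a mixed population is not given in the sources used here. COLCA2 encodes a co-activator of POU2F3, and the comparisons ask which transcripts differ when either gene is targeted.

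Notch receptors are single-pass membrane proteins that are activated by ligands on a neighbouring cell. Binding lets an ADAM protease and then gamma-secretase cut the receptor, and the freed intracellular part joins the DNA-binding protein RBPJ and a Mastermind-like co-activator (MAML) to switch on genes such as HES1 and HEY1. HES and HEY proteins are repressors, and HES1 is known for holding back neuroendocrine differentiation in the lung. REST silences neuronal genes in non-neuronal cells, and in small cell lung cancer Notch activity and REST are known for accompanying a non-neuroendocrine state.

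HES1 and JAG1 were the members at least 2-fold higher in every targeted library, so the 250 bases before their start sites are shown, from RefSeq (GRCh38.p14, read 5′ to 3′ on the gene's strand). Capitals mark the letters TGGGAA or their reverse complement TTCCCA, the core recognised by RBPJ. The HES1 window is chr3:194135898-194136147 on the plus strand, and the JAG1 window is chr20:10674000-10674249 on the minus strand.
HES1: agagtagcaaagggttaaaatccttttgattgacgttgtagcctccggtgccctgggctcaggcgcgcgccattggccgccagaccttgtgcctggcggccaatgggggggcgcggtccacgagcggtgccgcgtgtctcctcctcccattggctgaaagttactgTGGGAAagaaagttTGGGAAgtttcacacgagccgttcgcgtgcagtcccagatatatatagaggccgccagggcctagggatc
JAG1: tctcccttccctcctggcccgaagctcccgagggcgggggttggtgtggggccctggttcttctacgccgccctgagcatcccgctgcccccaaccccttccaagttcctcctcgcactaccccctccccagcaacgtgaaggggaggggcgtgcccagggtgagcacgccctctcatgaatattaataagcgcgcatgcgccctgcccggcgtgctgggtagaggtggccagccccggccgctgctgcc
The HES1 window held 2 matches on its own strand, at 79 to 84 and 65 to 70 bases before the start, and the JAG1 window held none. HEYL, which was barely detected, also held 2, one on each strand. They are shown as stretches of 26 bases of the minus strand, at chr1:39639806-39639831 and chr1:39639727-39639752.
HEYL far: gcctagggccTTCCCAcggctcggcg
HEYL near: gaaagggcccTGGGAAagggcggtgg
Windows were searched for 8 of the 10 members, and DLL1 and HEY1 were left out, so nothing is known here of theirs. Among these 8 members, only HES1 and HEYL had a match to the RBPJ core. On both strands, 20.8% of all 35116 windows of this length held TGGGAA. The octamer ATGCAAAT, to which POU2F proteins bind, was in 1.63% of all windows on either strand and in none of the windows of these 8 members. A match of letters is a description and not a measured binding site.

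Each library held between 21587741 and 29632382 reads assigned to genes. POU2F3 itself had normalized counts of 14602 in the control, 1449 with its own guide and 3677 and 2351 with COLCA2 guides 1 and 2. COLCA2 had 5585 in the control, 3119 and 3541 with its own guides 1 and 2 and 1393 with the POU2F3 guide. Each targeted transcript was thus lower with its own guide, and also with the guides of the other gene, while COLCA2 stayed within 2-fold of the control with its own guides. The list of 11 tuft markers includes POU2F3 itself, whose fall is the one just given. The list summed to a normalized count of 47140 in the control and 10197 to 15475 in the others. SOX9, with 17848, and POU2F3 were the largest parts of the control sum. Of the 8 past the minimum, POU2F3 among them, all were at least 2-fold lower with the POU2F3 guide and 7 with both COLCA2 guides. The 8 neuroendocrine markers summed to 20819 in the control and 14661 to 18102 in the others, nearly all of it UCHL1, with 20599 in the control. Among them, INSM1 was called lower with both targets and NEUROD1 had a normalized count of at most 12.9 in any library. The list of 7 fibroblast markers had a summed count of 1811 in the control and 2489 to 3044 in the targeted ones. Of its 6 measured genes, 3 (COL3A1, LUM and PDGFRB) were at least 2-fold higher with both targets, from 47.7, 14.3 and 22.9 in the control. COL1A1, the largest part of the control sum with 1136, had 1002 to 1186 in the targeted libraries. THY1 had 544 in the control and 905 to 968 in the targeted libraries. The summed counts of 7 leukocyte markers were 162 in the control and 226 to 320 in the targeted libraries. CD3E was at 0 throughout, and CD68 was called higher with both COLCA2 guides. LYZ went the other way, with 72.6 in the control, 45.6 and 48.2 with COLCA2 guides 1 and 2 and 61.3 with the POU2F3 guide. The summed counts of 7 endothelial markers were 106 in the control and at most 100 in any targeted library. KDR was at 0 throughout, and VWF was called lower with both targets. PECAM1 was above the control in each targeted library, within 2-fold. TIE1 was above it with both COLCA2 guides and below it with the POU2F3 guide, also within 2-fold. The part of these markers in the results below was not tested. In bulk RNA, a change in the share of cells that express a gene and a change in its RNA per cell cannot be told apart.

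All ratios below use the same single control library, and the POU2F3 group also held 1 library, so these differences had no replicate check. The COLCA2 guides gave the only spread within a group. Ratios are log2(normalized count + 1) differences, and a gene is called where it differed at least 2-fold, for COLCA2 with both guides. Of the 9 measured members, HES1 and JAG1 were called higher with the POU2F3 guide, against 6.73% of all genes, and none was called lower, against 3.05%. With both COLCA2 guides, HES1 and JAG1 were called higher, against 5.79% of all genes, and DLL1 was called lower, against 2.02%. The other members stayed within 2-fold of the control in all 3 targeted libraries, as did DLL1 with the POU2F3 guide. The median log2 ratio of the 9 members was 0.33 with the POU2F3 guide and 0.13 with the COLCA2 guides, and that of all genes was -0.0037 and -0.0086.

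**Figure D1:**
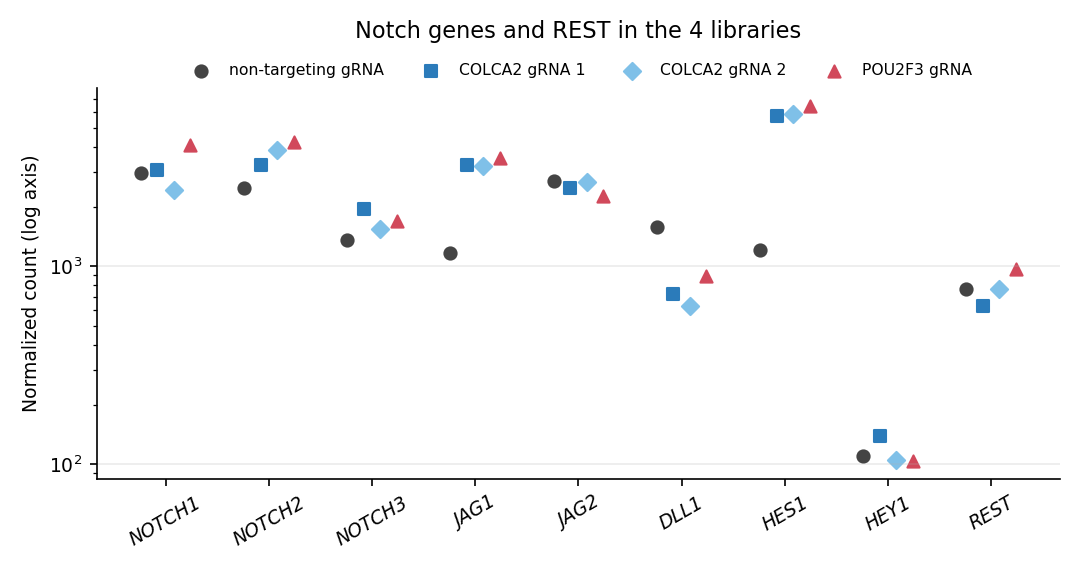
Normalized counts on a log axis for 9 of the 10 genes, 1 point for each library (HEYL, with at most 4 reads, is left out). HES1 and JAG1 lie well above, and DLL1 below, the control in the 3 targeted libraries, while JAG2 and HEY1 lie close together.

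The ligands differed among themselves. JAG1 (ENSG00000101384, minus strand of chromosome 20, 10637684 to 10673999 in GRCh38) encodes a Serrate-type ligand, and its normalized count was 1166 in the control, 3233 with COLCA2 guide 1, 3191 with COLCA2 guide 2 and 3522 with the POU2F3 guide. All 3 targeted libraries were high and close to each other. JAG1 was 2.77-fold higher with COLCA2 guide 1 (95% exact interval 2.59 to 2.96), 2.74-fold with COLCA2 guide 2 (2.56 to 2.93) and 3.02-fold with the POU2F3 guide (2.83 to 3.22), where intervals cover counting error only. Its mean log2 ratio with the COLCA2 guides was 1.46 ± 0.013 (SD, n = 2), and with the POU2F3 guide it was 1.59, a ratio exceeded by 534 of the 14940 genes.

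DLL1, a Delta-type ligand (ENSG00000198719, minus strand of chromosome 6, 170282206 to 170306565), was called lower with both COLCA2 guides. Its normalized count was 1583 in the control, 724 and 628 with COLCA2 guides 1 and 2 and 896 with the POU2F3 guide. The control was the highest and the POU2F3 guide lay between it and the COLCA2 guides. The COLCA2 libraries held 45.7% and 39.7% of the control level and the POU2F3-guide library 56.6%. On the log2 scale these are -1.23 ± 0.14 for the COLCA2 guides (SD, n = 2) and -0.82 for the POU2F3 guide, which is outside the 2-fold rule. DLL1 is listed in 2 rows, one of them an alternate copy, and the second row (ENSG00000275555) had log2 ratios of -1.07, -1.44 and -0.64 with COLCA2 guide 1, COLCA2 guide 2 and the POU2F3 guide, against -1.15, -1.30 and -0.89 for the first.

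JAG2, the other Serrate-type ligand (ENSG00000184916, minus strand of chromosome 14, 105140981 to 105168824), had normalized counts of 2705 in the control, 2475 and 2648 with COLCA2 guides 1 and 2, and 2248 with the POU2F3 guide. Its log2 ratios lay between -0.27 and -0.03, and none passed the 2-fold rule.

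Levels of different genes were compared per kb of the longest annotated transcript (GENCODE release 29). The 3 ligands summed to 1159 normalized counts per kb in the control, 1196 and 1189 with COLCA2 guides 1 and 2 and 1260 with the POU2F3 guide. JAG1 made up 16.9% of that sum in the control, 45.5% and 45.2% with COLCA2 guides 1 and 2 and 47.0% with the POU2F3 guide. The summed ligand level was thus within a narrow range while its make-up differed. DLL1 and JAG2 led in the control with 499 and 464 per kb against 196 for JAG1. JAG1 led in each targeted library, with a level 1.28 and 1.18 times that of JAG2 for the COLCA2 guides and 1.54 times for the POU2F3 guide, against 0.423 times in the control.

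**Figure D2:**
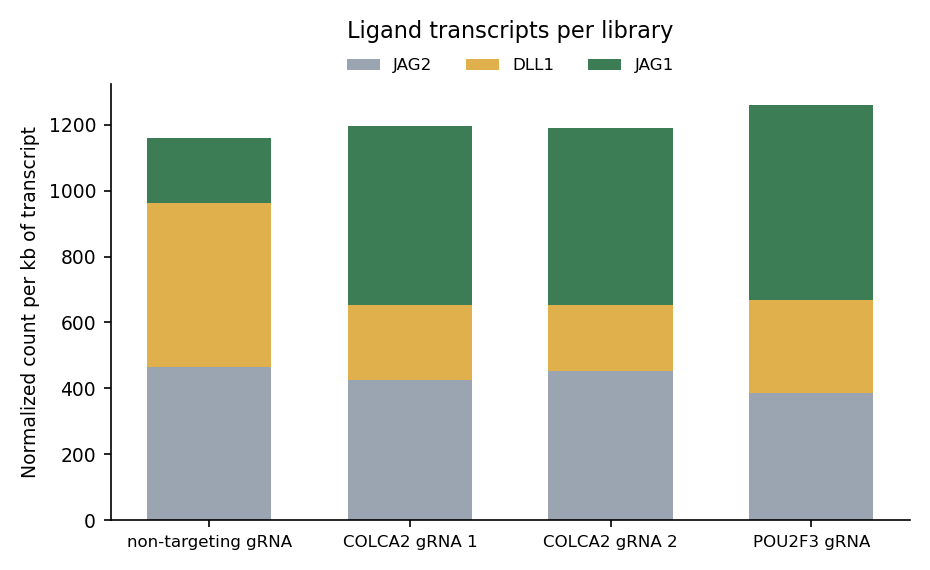
Stacked bars of the normalized count per kb of transcript for JAG2, DLL1 and JAG1 in each of the 4 libraries. The bars reach 1159 to 1260, and the JAG1 segment grows from 196 in the control to between 537 and 593 in the targeted ones.

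None of the receptors passed the 2-fold rule. NOTCH2 (ENSG00000134250, minus strand of chromosome 1, 119911553 to 120069626) reached 2469 normalized counts in the control and 3252 and 3853 with COLCA2 guides 1 and 2 and 4259 with the POU2F3 guide. Each targeted library was above the control, and the log2 ratios were 0.52 ± 0.17 for the COLCA2 guides (SD, n = 2) and 0.79 for the POU2F3 guide. NOTCH2 shares its 5′ part with the NOTCH2NL genes, so its counts are uncertain to the extent that reads were split among the copies. The most abundant copy, NOTCH2NLA, had log2 ratios of 0.55 and 0.36 with COLCA2 guides 1 and 2 and 0.76 with the POU2F3 guide, from 351 normalized counts in the control. NOTCH2NLC, with 241 in the control, had -0.49, 0.0027 and 0.30 in the same order. NOTCH2NLB had few counts, with 0.955 in the control, 12.4 and 35.3 with COLCA2 guides 1 and 2 and 16.8 with the POU2F3 guide. No ratio is given for it because its control value is near 0.

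NOTCH1 (ENSG00000148400, minus strand of chromosome 9, 136494433 to 136545786) had normalized counts of 2938 in the control, 3043 and 2426 with COLCA2 guides 1 and 2 and 4090 with the POU2F3 guide. The control value lay between those of the COLCA2 guides, and the value with the POU2F3 guide stood above the other libraries. The log2 ratio was -0.11 ± 0.23 for the COLCA2 guides (SD, n = 2), so their difference from the control was smaller than their spread, and 0.48 for the POU2F3 guide.

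NOTCH3 (ENSG00000074181, minus strand of chromosome 19, 15159038 to 15200981) had normalized counts of 1350 in the control, 1954 and 1532 with COLCA2 guides 1 and 2 and 1685 with the POU2F3 guide. It was lowest in the control, and the POU2F3 guide lay between the COLCA2 guides. The log2 ratios were 0.36 ± 0.25 (SD, n = 2) and 0.32. Per kb, NOTCH1 was the most abundant receptor in the control, with 316 against 217 for NOTCH2 and 156 for NOTCH3. NOTCH1 and NOTCH2 stood in opposite order in the COLCA2 libraries, with 327 and 286 per kb for guide 1 and 261 and 338 for guide 2, so their order in that group was not beyond the spread. The 3 receptors summed to 688 per kb in the control, 838 and 776 with COLCA2 guides 1 and 2 and 1008 with the POU2F3 guide.

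Among the 9 measured members, HES1 had the largest ratio in each targeted library. HES1 (ENSG00000114315, plus strand of chromosome 3, 194136145 to 194138732) encodes a basic helix-loop-helix repressor and is the best known RBPJ target. Both matches in its promoter window above lie within 84 bases of the start. They are matches of letters only, and a part of RBPJ in the HES1 values below was not tested. Its normalized count was 1205 in the control, 5700 with COLCA2 guide 1, 5868 with COLCA2 guide 2 and 6436 with the POU2F3 guide. The targeted libraries lay close together and far above the control. HES1 was 4.73-fold higher with COLCA2 guide 1 (95% exact interval 4.45 to 5.03), 4.87-fold with COLCA2 guide 2 (4.58 to 5.18) and 5.34-fold with the POU2F3 guide (5.03 to 5.67). The log2 ratios were 2.26 ± 0.030 for the COLCA2 guides (SD, n = 2) and 2.42 for the POU2F3 guide, exceeded by 335 and 253 of the 14940 genes. Per kb, HES1 was the most abundant member in every library, at 764 in the control and 3612 to 4079 in the targeted ones.

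HEY1 and HEYL belong to the related hairy/YRPW family of repressors. HEY1 was within 2-fold of the control in each targeted library, and HEYL was under the expression minimum. HEY1 (ENSG00000164683, minus strand of chromosome 8, 79764010 to 79767863) had normalized counts of 110 in the control, 139 and 105 with COLCA2 guides 1 and 2 and 104 with the POU2F3 guide. The control lay between the COLCA2 guides, and the POU2F3 guide lay just below COLCA2 guide 2. The interval of the fold, 0.729 to 1.23 with the POU2F3 guide, reached from below to above 1. HEYL (ENSG00000163909, minus strand of chromosome 1, 39624153 to 39639945) had 4 reads with COLCA2 guide 1, 1 with the POU2F3 guide and 0 in the other libraries, where up to 3 reads cannot be told from 0, and no fold is given for it. REST (ENSG00000084093, plus strand of chromosome 4, 56907876 to 56966678) had normalized counts of 768 in the control, 627 and 767 with COLCA2 guides 1 and 2 and 966 with the POU2F3 guide. The POU2F3 guide was the highest and COLCA2 guide 1 the lowest. The log2 ratio of REST was -0.15 ± 0.20 for the COLCA2 guides (SD, n = 2) and 0.33 for the POU2F3 guide, and none passed the 2-fold rule.

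**Figure D3:**
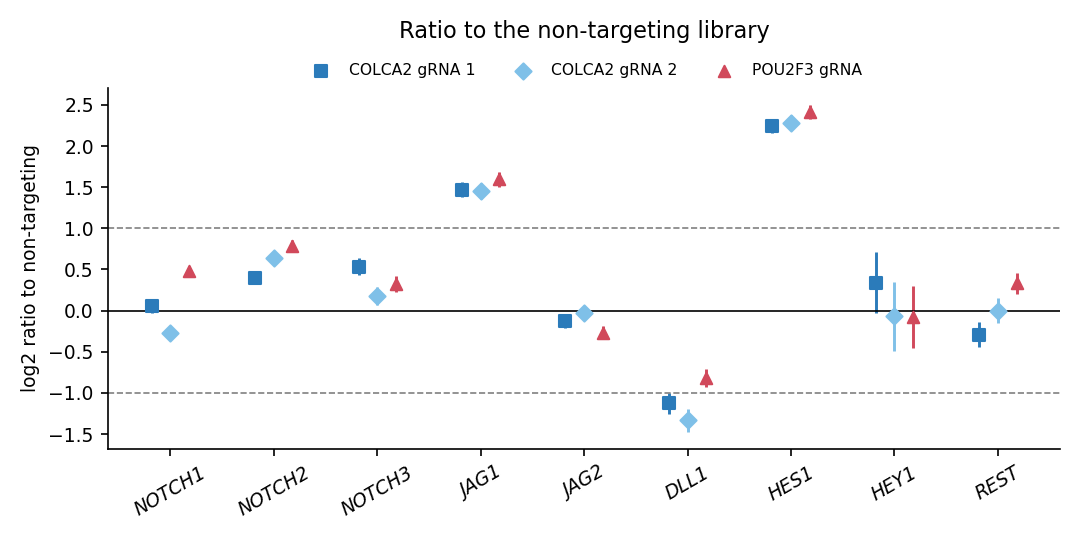
log2 ratio to the control for each targeted library (points), with 95% exact intervals for counting error (vertical lines) and the 2-fold limits (dashed). HES1 and JAG1 exceed the upper limit in all 3 libraries, and DLL1 passes the lower limit with both COLCA2 guides but not with the POU2F3 guide.

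All 3 targeted libraries lay above the control for NOTCH2, NOTCH3, JAG1 and HES1, 4 of 9 members against 34.4% of all genes. They lay below it for JAG2 and DLL1, against 35.3% of all genes. Nothing about the members is read from these counts.

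The quasi-likelihood test of edgeR was applied to the recovered reads as an alternative. The spread it uses rests on the COLCA2 pair alone, with 1 residual degree of freedom, so it compares these libraries and not the conditions. It called HES1, JAG1 and NOTCH2 higher and DLL1 lower with each target, against 12.4% of all genes called for the POU2F3 guide and 18.9% for the COLCA2 guides. The edgeR adjusted p was 6.82e-05 for HES1, 0.000262 for JAG1, 0.0112 for NOTCH2 and 0.0152 for DLL1 with the POU2F3 guide. With the COLCA2 guides the edgeR adjusted p was 3.96e-05, 0.00018, 0.0263 and 0.00105 in the same order of genes. The next lowest edgeR adjusted p was 0.105, for NOTCH1 with the POU2F3 guide.

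The POU2F3-guide library was then set against the COLCA2 libraries, which leaves out the control. Of the 9 measured members, none differed at least 2-fold from both guides, against 1.37% of all genes, and none differed 2-fold between the guides, against 2.22%. The median log2 difference of the members was 0.15, and that of all genes was -0.0039. The edgeR test of this difference called none of the 9 members with Benjamini-Hochberg adjustment, against 0.341% of all genes, and 3 members had an unadjusted p under 0.05. The widest of these differences was that of NOTCH1, 0.59 above the mean of the guides on the log2 scale, beside a difference of 0.33 between the guides. NOTCH1 was 1.34-fold higher than with COLCA2 guide 1 (95% exact interval 1.28 to 1.41) and 1.69-fold higher than with COLCA2 guide 2 (1.60 to 1.78). Its edgeR adjusted p for this difference was 0.171.

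REST was 0.48 above the mean of the guides on the log2 scale, beside -0.29 between guide 1 and guide 2, and DLL1 was 0.41 above, beside 0.20. Their edgeR adjusted p was 0.246 and 0.262. HES1 was 1.13-fold higher with the POU2F3 guide than with COLCA2 guide 1 (95% exact interval 1.09 to 1.17) and 1.10-fold higher than with COLCA2 guide 2 (1.06 to 1.14). By value, the POU2F3 guide lay above both COLCA2 guides at 6 of the 9 members, namely NOTCH1, NOTCH2, JAG1, DLL1, HES1 and REST, against 35.6% of all genes. It lay below both at JAG2 and HEY1, against 38.9%.

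Beyond the members, 93 genes in 9 lists of the Notch and REST pathways were described, of which 70 passed the minimum. With the POU2F3 guide 3 of the 70 were called higher and 1 lower, which is 4.29% and 1.43%, below the shares of all genes given above. With both COLCA2 guides 3 were called higher and 3 lower, 4.29% each, which is below the share of all genes for higher calls and above it for lower ones. The genes called with both targets were MAML2, L1CAM and INSM1.

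No gene was called among 9 genes for receptor cleavage, such as ADAM10 and the gamma-secretase subunits, with median log2 ratios of 0.20 for the POU2F3 guide and 0.30 for the COLCA2 guides. None was called among 5 glycosylation genes (4 measured, medians 0.050 and 0.090) or 12 endocytosis and turnover genes (11 measured, medians 0.16 and -0.10). Other receptors and ligands also had none (5 of 6 measured, medians -0.32 and -0.22). In the control, NOTCH4 had 115 normalized counts and DLL3, a ligand known as a surface marker of neuroendocrine tumours, had 116. DNER, named after its values were seen, was the most abundant gene of this list, with 2310 in the control. Its log2 ratios were -0.75 with the POU2F3 guide and -0.45 and -0.38 with COLCA2 guides 1 and 2. In the same order, DLK2 had 0.46, 0.024 and -0.15. The other HES and HEY genes and NRARP had none among 4 measured of 8, with medians of -0.27 and -0.19. HES6 counteracts HES1 and was named after its values were seen. Its log2 ratios were -0.74 with the POU2F3 guide and -0.72 and -0.81 with COLCA2 guides 1 and 2. The other measured genes of this list did not all go the same way. In the same order, HES4 had 0.26, 0.45 and 0.61, HES2 had -0.16, -0.78 and 0.18, and NRARP had -0.38, -0.085 and -0.086.

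In the nuclear complex (10 genes, medians -0.096 and -0.22), MAML2, a Mastermind-like co-activator, had 371 normalized counts in the control, 820 and 744 with COLCA2 guides 1 and 2 and 1066 with the POU2F3 guide. Its log2 ratio with COLCA2 guide 2 was 1.001, at the limit, and scaling to equal totals or a pseudocount of 10 ended the COLCA2 call. RBPJ itself had log2 ratios of -0.09 with the POU2F3 guide and -0.26 and -0.16 with COLCA2 guides 1 and 2.

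REST's corepressors and regulators (12 of 13 measured, medians -0.063 and -0.13) held 1 called gene, RCOR2, named after its values were seen, which was lower with the COLCA2 guides at -1.49 and -1.32 and had -0.75 with the POU2F3 guide. Of 23 neuronal genes known to be repressed by REST, 14 passed the minimum, with medians of -0.096 for the POU2F3 guide and -0.14 for the COLCA2 guides. L1CAM, a cell adhesion molecule, had 76.4 normalized counts in the control, 645 and 653 with COLCA2 guides 1 and 2 and 441 with the POU2F3 guide, and it was called higher with both targets. SCG2, a granin, was called higher with both COLCA2 guides (1.70 and 1.87) and CHRNB2, a nicotinic receptor subunit, was called lower (-2.15 and -2.28), and both were named after their values were seen. With the POU2F3 guide their log2 ratios were 0.82 and -0.98, outside the rule, though CHRNB2 passed it under scaling to equal totals. Both had few reads, at most 32 for SCG2, which was under the minimum of 20 in the control, and at most 100 for CHRNB2. Set against both COLCA2 guides, the POU2F3 guide had CHRNB2 higher by 1.17 and 1.30 on the log2 scale, which passes the 2-fold rule.

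Of 7 proneural factors only INSM1 passed the minimum. INSM1, a zinc finger factor of neuroendocrine cells, had 118 normalized counts in the control, 23.8 and 24.7 with COLCA2 guides 1 and 2 and 35.3 with the POU2F3 guide, and was called lower with both targets.

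**Figure D4:**
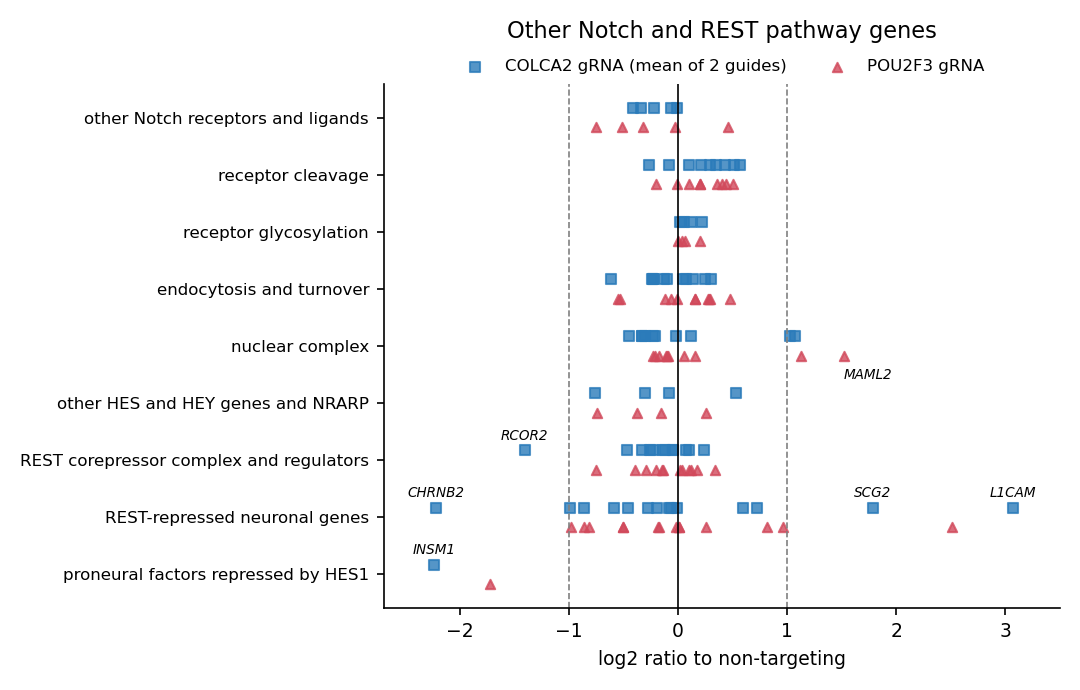
log2 ratio to the control for the 70 measured genes of the 9 pathway lists, with a triangle for the POU2F3 guide and a square for the COLCA2 mean of each gene, with the 2-fold limits dashed. Nearly all points lie inside the limits, and the labels name the genes farthest beyond them.

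The genes most like HES1 and JAG1 over the 4 libraries were sought among 12150 genes with a mean of at least 100, by the Euclidean distance between log2 values centred on each gene's mean. For HES1 they were TNS3 (0.092), PLK2 (0.099) and GULP1 (0.16). For JAG1 they were THSD4 (0.055), KLF6 (0.094) and CUEDC1 (0.11). With 4 libraries, of which 1 stands for the control, such a likeness describes the size of a single contrast.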

How the data were processed

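The authors deposited 1 table of normalized counts per gene for each library, a linear signal per the file headers. Salmon, DESeq2 and hg38 are named in the submitters' processing notes, without a role. In each library 100% of the deposited values were whole multiples of 1 step (tolerance 0.01 reads). The factors recovered this way (0.965, 0.850, 1.19 and 1.05 for COLCA2 guides 1 and 2, the POU2F3 guide and the control) equal the median-of-ratios factors of those reads. Reads that Salmon assigns are estimates, here rounded. Whether counting used strand is not given in the sources used here, so reads from overlapping antisense genes may be included. No column was left without a sample, and whether libraries came from separate cultures is not stated.

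The 38145 rows were summed by symbol and kept at a mean of at least 20. Ratios used a pseudocount of 1. The calls are without a test, since 2 groups held 1 library. edgeR 4.0.16 (R 4.3.3) ran with TMM on 3 groups, with adjustment over all genes at 0.05. Counts of genes called and edgeR were tested on simulated data in which every targeted library was given the same changes from the control. Recovery of a difference between the POU2F3 guide and the COLCA2 guides was therefore not tested. Exact (Clopper-Pearson) intervals at 95% cover counting error only, because PCR copies of a molecule could not be removed by identifiers. Named genes are all members, genes of a list called with both targets, RBPJ, DLL3, NOTCH4, NEUROD1, INSM1 and the targeted genes, and the 3 genes nearest to each of the members with the largest shared ratios. Other names were chosen after their values were seen, and some genes of the lists are counted but not reported here by name. The members and lists were chosen with earlier results of these data known. Alternatives were other scalings, pseudocounts, minimums, fold thresholds, rows, guides and the edgeR test.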

Additional observations from a re-analysis of the deposited data

Results flagged for a closer look

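REST lay above the control with the POU2F3 guide and below it with both COLCA2 guides, with a log2 difference of 0.48 between the POU2F3 guide and the mean of the guides. With COLCA2 guide 2 the ratio was only -0.0018 on the log2 scale. That every library of a group lay on its own side is what singled it out, and 13.1% of the 14940 genes met this rule. The edgeR adjusted p of the difference was 0.246.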

How the results depend on the processing

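The members called did not change under 3 other scalings, pseudocounts of 0.1 and 10, the highest row for each symbol, no minimum, a minimum of 100, or without either COLCA2 guide: 2 members with the POU2F3 guide, 3 with the COLCA2 guides and 0 between them. At 1.5-fold 4 members passed with the POU2F3 guide, NOTCH2 and DLL1 having been added, and at 4-fold 1, HES1, passed with the POU2F3 guide and 1 with both COLCA2 guides. The edgeR test called 4 members with the POU2F3 guide and 4 with the COLCA2 guides. In the pathway lists, 11 of 54 counts moved by over 1.5 times. Equal totals took the neuronal genes repressed by REST from 1 to 2 with the POU2F3 guide, and equal totals or a pseudocount of 10 took the nuclear complex from 1 to 0 with the COLCA2 guides. With no minimum, which admits genes with few reads, the neuronal genes went from 1 to 5 with the POU2F3 guide and from 3 to 5 with the COLCA2 guides, the proneural factors from 1 to 2 and from 1 to 4, the other HES and HEY genes from 0 to 2 and from 0 to 1, and glycosylation genes and REST corepressors each from 0 to 1 with the POU2F3 guide. Over all genes, with both COLCA2 guides 865 were called higher and 302 lower at 2-fold, against 1451 and 901 at 1.5-fold, 346 and 44 at 4-fold and 2831 in either direction by edgeR. Of 198 other values of members, 4 moved by more than the spread between the guides, all under equal totals, which shifted the median of all genes to -0.077 for the COLCA2 guides, and no called value changed sign. No paired analysis was possible because 2 groups hold a single library and so share fewer than 2 numbers.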
